A study of Mus musculus with 21 samples.

Results

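Cardiac macrophages of the R3 population were set against those of the R2 population in mice challenged with CAWS, a water-soluble polysaccharide complex from the yeast *Candida albicans* that gives mice an inflammation of the coronary arteries used as a model of Kawasaki disease. Per the labels, CAWS R3 cells were positive for Ccr2 and high for MHC-II, and CAWS R2 cells were negative for Ccr2 and high for MHC-II. The comparison took 3 CAWS R3 and 3 CAWS R2 libraries, 6 of the 21 libraries of the series, and they were chosen by their labels alone. The same populations from unchallenged mice, 3 naive R3 and 3 naive R2 libraries, were used to ask whether the difference was the same without challenge. The cells of these groups all came from hearts of C57BL/6 mice with no transgene named in the labels, and were sorted fresh. Their RNA was taken with RNeasy Plus Mini columns and sequenced from TruSeq RNA libraries. The other libraries of the series held heart macrophages of the R1 population, naive and CAWS, and splenic monocytes of naive mice. They entered the estimate of spread. The 3 pools of mice of each kind were independent, and the sort divided each pool, so the R3 and R2 libraries of 1 number were taken to share mice. The p-values come from a fit without that pairing unless the pool is named as a block; they measure the spread between pools, and differences between single animals are not seen. Of the number of mice in a pool, their age and sex, the CAWS dose and the time after challenge nothing is given in the sources used here.

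The mouse heart holds macrophages of several origins. Many, but not all, of the cells without Ccr2, the receptor for the chemokine Ccl2, are seeded before birth and renew themselves in the tissue. Such resident cells carry receptors such as Timd4, Lyve1 and Folr2, and clear dying cells. The origin of the R2 cells was not tested here. Cells with Ccr2 are replaced from blood monocytes, which need that receptor to leave the bone marrow, and they accumulate in the inflamed heart. MHC class II molecules, which present peptides to CD4 T cells, are found on macrophages of either origin and on dendritic cells.

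Counts per library ran from 12800136 to 14630186 in CAWS R3 and from 15036719 to 19341770 in CAWS R2. Values are given as CPM (counts per 1000000 counts, on TMM-adjusted library sizes), as log2 fold changes of CAWS R3 over CAWS R2 with their standard errors (SE), and as edgeR p-values adjusted over all 13275 genes tested. Some libraries stood apart in ways that touch the results below. CAWS R2 replicate 2 had 3.02% of its counts in a single gene ID without a symbol, and leaving that ID out gave 732 higher and 1294 lower genes. Markers of dendritic cells differed between CAWS R2 libraries, highest in replicate 2 and lowest in replicate 3. Naive R3 replicate 3 held more of the resident macrophage markers, 22766 CPM in all, than the other naive R3 libraries, with 14936 and 16689 CPM.

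The genes that define the sort checked the labels. Ccr2 (gene ID 12772, chr9:124101918-124109140, mm10) had 3466, 4063 and 3471 CPM in CAWS R3, against 206, 267 and 221 CPM in CAWS R2, a log2 fold change of 3.99 ± 0.30 (SE; adjusted p = 5.41e-08). H2-Ab1, which encodes a beta chain of MHC class II, had 12320, 9961 and 8529.7 CPM in CAWS R3 and 9732, 9161 and 7147 CPM in CAWS R2 (0.24 ± 0.29, adjusted p = 0.645), and these groups overlapped. Of 11 MHC class II presentation genes, edgeR called 0 higher and 0 lower. At an unadjusted p under 0.05 it counted 0 higher and 1 lower, DESeq2 called 0 and 0, and limma voom 1 and 0. A fit of the 6 libraries alone with the pool as a block, chosen after the data were seen, called 6 higher and 1 lower, with H2-Ab1 at 0.27 (adjusted p = 0.00345). As the sort selected on Ccr2 and MHC-II, these values say only that the labels hold.

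Receptors shared by macrophages were read in every library. Of 12 pan-macrophage markers tested, edgeR called 3 lower (25%), namely Mertk, Csf1r and Adgre1, and 0 higher in CAWS R3. The other 9 did not pass, and the median log2 fold change was -0.23. Over all genes tested 9.76% were lower and 5.51% higher. At an unadjusted p under 0.05 the list had 1 higher and 5 lower, by DESeq2 0 and 3, and by limma voom 2 and 5. Csf1r, the receptor for the growth factor that keeps macrophages alive, had 4509, 4454 and 4550.4 CPM in CAWS R3 and 6284, 6729.8 and 6739 CPM in CAWS R2, a log2 fold change of -0.55 ± 0.09 (adjusted p = 0.000216). Adgre1, which encodes the F4/80 antigen, had 1901, 2385 and 2145 CPM in CAWS R3 and 2403, 2638 and 2821 CPM in CAWS R2. Its log2 fold change of -0.29 ± 0.09 (adjusted p = 0.0397) passed the test only narrowly, and without CAWS R3 replicate 1 it was -0.16 (adjusted p = 0.456). Leaving out CAWS R3 replicate 3, CAWS R2 replicate 2 or CAWS R2 replicate 3 also lost the call, with adjusted p values of 0.0809, 0.233 and 0.191, as did DESeq2 (0.0618), and other scalings, other filters and the fit of the 6 libraries alone (0.0532 to 0.126).

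In the comparison across all genes, 2027 of 13275 genes (15.3%) passed the test at an adjusted p under 0.05. CAWS R3 had 732 genes higher (5.51%) and 1295 lower (9.76%) than CAWS R2, with a median log2 fold change over all genes of -0.043. Counts of list members given below for this comparison are to be read beside those shares. At least a 2-fold difference was reached by 209 of the higher genes (1.57% of those tested) and by 601 of the lower ones (4.53%). The CAWS R3 and CAWS R2 libraries did not overlap for 4998 genes (37.6%), which include 2002 of the 2027. Where genes past the test are said below not to overlap between groups, that largely follows from their choice and adds little to the test. The counts fell when a library was left out. They were 470 higher and 766 lower without CAWS R3 replicate 1, 398 and 885 without CAWS R3 replicate 2, 507 and 1100 without CAWS R2 replicate 1, 641 and 912 without CAWS R2 replicate 2, and 391 and 920 without CAWS R2 replicate 3. Lower genes outnumbered higher ones in each of these fits. The numbers were closer with upper quartile scaling (867 higher, 1120 lower) and with library size only (895 and 1141). They were nearly equal in a fit of the 6 libraries alone (1402 and 1480). Libraries hold the RNA of many sorted cells, so fewer cells of a type and less RNA per cell cannot be told apart in any of these values.

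**Figure D1:**
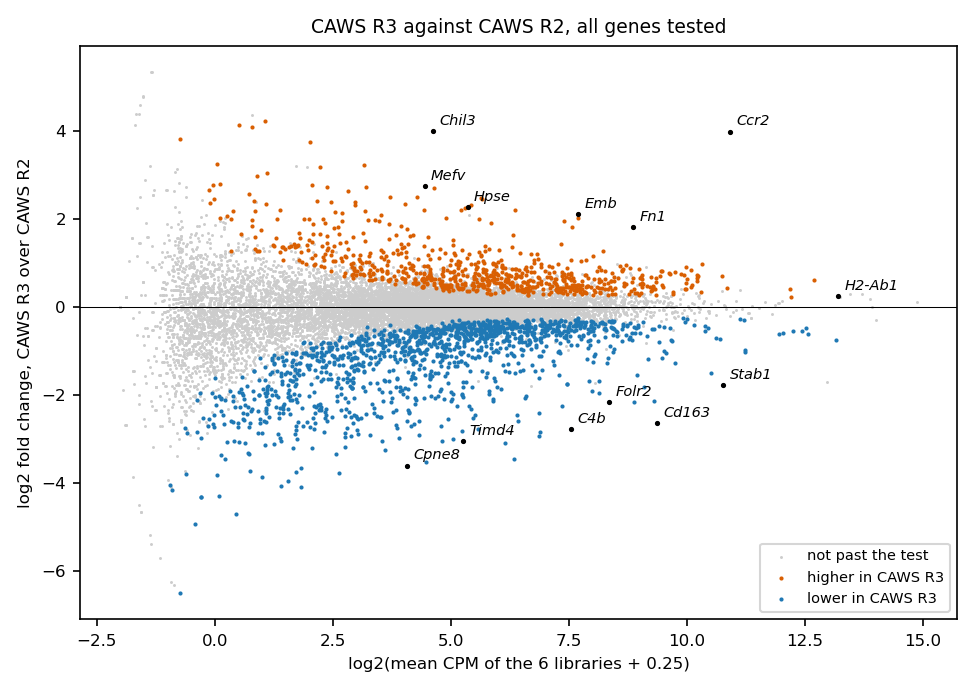
Log2 fold change of CAWS R3 over CAWS R2 (y axis) against the log2 of the mean CPM of the 6 libraries plus 0.25 (x axis) for the 13275 genes tested, with the 732 higher genes in orange, the 1295 lower genes in blue and other genes in grey. Chil3 and Ccr2 lie near 4 at the top, Cpne8 at -3.61 and Timd4 at -3.05 lie low, and H2-Ab1 lies near 0 at the right.

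Among genes past the test with at least 16 CPM on average in the higher group and no overlap between libraries, the largest increase was that of Chil3, which encodes the chitinase-like protein Ym1. It had 31.6, 67.8 and 39.6 CPM in CAWS R3 and 1.65, 2.66 and 4.31 CPM in CAWS R2, a log2 fold change of 4.0 ± 0.40, or 15.9-fold (adjusted p = 1.03e-06). All CAWS R3 libraries lay far above all CAWS R2 libraries. Ly6c2, the classical monocyte antigen, was low in both groups, with 6.72, 6.74 and 7.28 CPM in CAWS R3 and 0.794, 1.41 and 0.778 CPM in CAWS R2 (2.76 ± 0.35, adjusted p = 1.39e-06). Fn1, which encodes the matrix protein fibronectin and is abundant in monocytes, had 767, 582 and 834 CPM in CAWS R3 and 179, 207 and 232 CPM in CAWS R2 (1.82 ± 0.37, adjusted p = 0.0029). Neither gene's groups overlapped.

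Of 19 classical monocyte markers tested, 7 were higher (36.8%) and 1 was lower (5.26%) in CAWS R3, beside 5.51% and 9.76% of all genes tested. Their median log2 fold change was 0.53. The list summed to 19159, 19205 and 15753 CPM in CAWS R3 and 19285, 18331 and 17934 CPM in CAWS R2, which overlapped. Most of each sum was Lyz2, the lysozyme of macrophages and monocytes, which did not pass (0.00 ± 0.16, adjusted p = 0.999). Besides Chil3, Ly6c2 and Fn1 the higher members were Ms4a4c, Ms4a6c, Vcan and Cd177. Ms4a4c, a membrane protein of the MS4A family, had 98.7, 141 and 124 CPM in CAWS R3 and 32.8, 45.0 and 39.1 CPM in CAWS R2 (1.64 ± 0.33, adjusted p = 0.00208). The lower member was F13a1, the coagulation factor XIII A chain, which resident macrophages also express, with 788, 776 and 741 CPM in CAWS R3 and 2219, 2159 and 2140.4 CPM in CAWS R2 (-1.50 ± 0.20, adjusted p = 2.08e-05). Plac8, abundant in blood monocytes, had 41.6, 94.7 and 67.9 CPM in CAWS R3 and 12.5, 23.8 and 10.9 CPM in CAWS R2, without overlap, yet did not pass (2.10 ± 0.72, adjusted p = 0.0626). With 1 library left out the count of higher members was 5 to 7. Vcan had adjusted p values of 0.051 to 0.144 when any CAWS library but CAWS R2 replicate 2 was left out, and Cd177 had 0.0959 without CAWS R3 replicate 1.

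The upstream sequence of Chil3 is shown because this gene had that largest increase, and it holds the motifs searched for. In RefSeq's promoter table for GRCm38.p6, the 250 bases before its start lie at chr3:106167565-106167814 on the minus strand.
Chil3: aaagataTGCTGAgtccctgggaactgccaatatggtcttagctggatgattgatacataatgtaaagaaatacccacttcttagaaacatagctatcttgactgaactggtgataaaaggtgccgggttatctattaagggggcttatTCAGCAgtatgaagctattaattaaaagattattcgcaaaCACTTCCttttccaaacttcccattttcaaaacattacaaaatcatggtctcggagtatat
Capitals mark GGAAGTG, a core of sites for the myeloid factor PU.1, and TGCTGA, a core bound by MAF factors, on either strand (CACTTCC and TCAGCA on the other), and the motifs do not overlap. Among 10203 tested genes with a promoter entry, 11.6% held GGAAGTG and 12.6% held TGCTGA in the 250 bases searched. Of the 209 genes at least 2-fold higher in CAWS R3, 138 were searched, and 10.9% of these held the first and 20.3% the second. Of the 601 genes at least 2-fold lower, 457 were searched, and 7.88% of these held GGAAGTG and 15.3% held TGCTGA. A match describes the letters and not a bound site.

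The 3 Sirpb1 genes, which encode paired activating receptors of the signal-regulatory protein family and lie near each other on chromosome 3, were all higher. Sirpb1c had 44.8, 44.0 and 40.9 CPM in CAWS R3 and 5.89, 6.56 and 7.31 CPM in CAWS R2 (2.71 ± 0.37, adjusted p = 4.55e-05). Sirpb1a had 82.3, 93.2 and 81.5 CPM in CAWS R3 and 16, 16.5 and 14.2 CPM in CAWS R2 (2.46 ± 0.29, adjusted p = 6.89e-06). Sirpb1b had 32.4, 39.9 and 34.1 CPM in CAWS R3 and 5.56, 9.16 and 8.08 CPM in CAWS R2 (2.21 ± 0.25, adjusted p = 1.4e-06). The groups of none of the 3 genes overlapped, which their choice as largest changes required. A stretch of 57 bases upstream of their starts is printed, taken where the upstream sequences matched best, so its distance from the start differs between genes. In that stretch 3 positions differ, in capitals, and 94.7% are the same in all of them (RefSeq, GRCm38.p6, minus strand, chr3:15426521-15426577 for Sirpb1a, chr3:15575066-15575122 for Sirpb1b and chr3:15848529-15848585 for Sirpb1c).
Sirpb1a: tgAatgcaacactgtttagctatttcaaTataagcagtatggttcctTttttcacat
Sirpb1b: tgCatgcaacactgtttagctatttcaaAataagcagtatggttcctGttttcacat
Sirpb1c: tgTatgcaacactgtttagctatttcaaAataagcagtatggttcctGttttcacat
How alike the transcripts of these genes are was not compared. Reads from near-identical copies may have been split or lost in counting, so the value of each copy is uncertain.

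Receptors and innate sensors were among the largest increases. Mefv encodes pyrin, an inflammasome sensor, and had 37.4, 37.1 and 38.2 CPM in CAWS R3 and 5.09, 5.2 and 6.41 CPM in CAWS R2 (2.75 ± 0.26, adjusted p = 2.12e-08). Ltb4r1, the high-affinity receptor for the chemoattractant leukotriene B4, had 88.7, 70.9 and 54.6 CPM in CAWS R3 and 12, 22 and 8.80 CPM in CAWS R2 (2.31 ± 0.41, adjusted p = 0.0007). Gpr141, an orphan G protein-coupled receptor, had 72.7, 94.3 and 87.6 CPM in CAWS R3 and 12.2, 19.2 and 13.8 CPM in CAWS R2 (2.48 ± 0.39, adjusted p = 0.000251). Each CAWS R3 library was above each CAWS R2 library for these genes, as the rule for the largest changes required.

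Secreted and surface proteins followed. Hpse encodes heparanase, which cuts heparan sulfate in the matrix, and had 63.1, 70.7 and 68.9 CPM in CAWS R3 and 11.3, 16.3 and 14.4 CPM in CAWS R2 (2.26 ± 0.17, adjusted p = 2.4e-09). Ear2, an eosinophil-associated ribonuclease also made by macrophages, had 90.3, 59.0 and 45.7 CPM in CAWS R3 and 15.5, 14.9 and 10.6 CPM in CAWS R2 (2.25 ± 0.53, adjusted p = 0.00866). Emb, the adhesion protein embigin, had 359, 342 and 311 CPM in CAWS R3 and 78.3, 86.4 and 69.4 CPM in CAWS R2 (2.11 ± 0.16, adjusted p = 4.72e-09). Ear2 varied most among these between CAWS R3 libraries. The choice of these genes required groups without overlap. Tmem154 (2.33 ± 0.20) and Ttc39c (2.09 ± 0.26) were also higher. Ly6a, an interferon-induced surface antigen, had 29.7, 77.0 and 75.0 CPM in CAWS R3 and 10.5, 13.4 and 15.4 CPM in CAWS R2 (2.21 ± 0.58, adjusted p = 0.0165), with CAWS R3 replicate 1 well under the other 2 libraries. Its call was lost without CAWS R3 replicate 2, CAWS R3 replicate 3 or CAWS R2 replicate 1, with adjusted p values of 0.0659, 0.0509 and 0.0633.

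**Figure D2:**
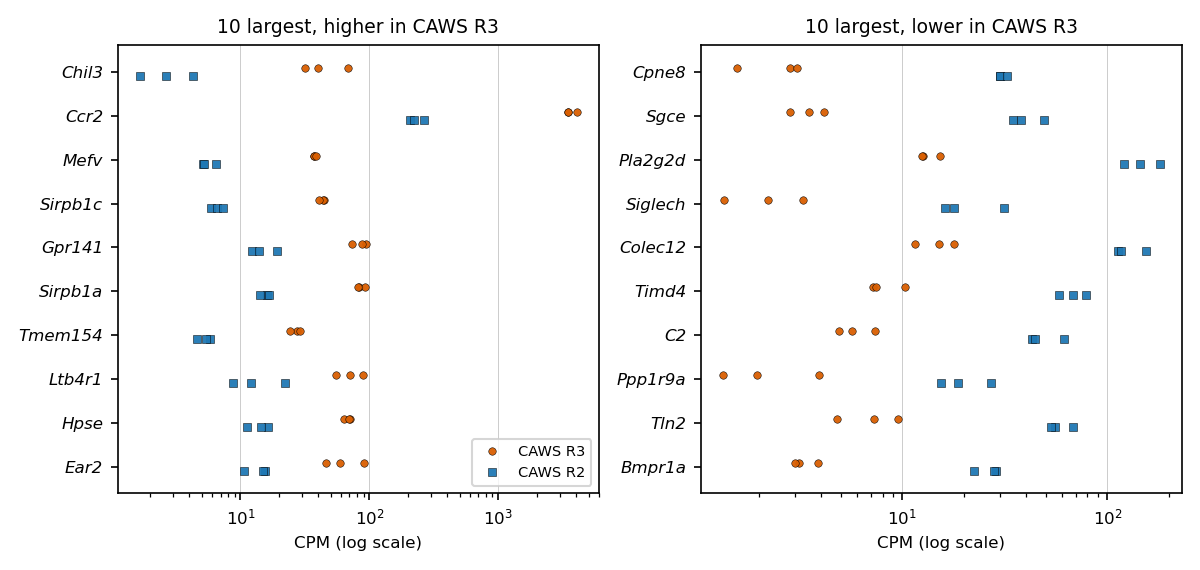
CPM on a log scale (x axis) in each of 3 CAWS R3 (orange circles) and 3 CAWS R2 (blue squares) libraries for the 10 largest increases (left) and the 10 largest decreases (right) in CAWS R3 by the rule for named genes. The groups do not overlap for any of these genes, which the choice of genes required.

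Markers of resident cardiac macrophages were lower in CAWS R3. Of 25 such markers, 19 were lower, against 9.76% of all genes tested, and edgeR called 0 higher, with 1 higher at an unadjusted p under 0.05 and 0 by DESeq2 and by limma voom. Their median log2 fold change was -1.50. Summed over the list, CAWS R3 had 13198, 13735 and 11845 CPM and CAWS R2 had 27589.7, 26399 and 25909 CPM. Leaving out a library gave 17 to 19 lower members.

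Timd4 (gene ID 276891, chr11:46810786-46844333, mm10), a receptor for phosphatidylserine on dying cells, had 10.3, 7.18 and 7.41 CPM in CAWS R3 and 68.1, 78.9 and 57.9 CPM in CAWS R2 (-3.05 ± 0.32, adjusted p = 1.31e-06). Lyve1, a hyaluronan receptor, had 28.7, 23.6 and 28.1 CPM in CAWS R3 and 192, 254 and 170 CPM in CAWS R2 (-2.94 ± 0.35, adjusted p = 1.13e-05). Cd163, the receptor for haptoglobin-bound haemoglobin, had 200.4, 142 and 204 CPM in CAWS R3 and 1242, 1081 and 1104 CPM in CAWS R2 (-2.65 ± 0.20, adjusted p = 9.05e-09). The lowest CAWS R2 library was several times the highest CAWS R3 library for all 3 genes. For Timd4 and Lyve1 the rule for the largest changes required groups without overlap. Vsig4, a complement receptor of resident macrophages, had 15.5, 9.35 and 14.2 CPM in CAWS R3 and 77.3, 65.2 and 84.4 CPM in CAWS R2 (-2.54 ± 0.25, adjusted p = 1.24e-07). Folr2, a folate receptor, had 127, 126 and 108 CPM in CAWS R3 and 560, 559 and 494 CPM in CAWS R2 (-2.16 ± 0.33, adjusted p = 0.00019). Cbr2, a carbonyl reductase, had 115, 119.6 and 111 CPM in CAWS R3 and 441, 493 and 403 CPM in CAWS R2 (-1.95 ± 0.26, adjusted p = 3.51e-05). These groups were also apart. Mrc1, the mannose receptor, had a smaller decrease of -0.97 ± 0.23 (adjusted p = 0.00598). Siglec1 (-0.63, adjusted p = 0.211) and Mgl2 (-0.60, adjusted p = 0.0756) did not pass, and neither did Cd5l, at 1.25 ± 0.56 (adjusted p = 0.147).

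The sequence upstream of Timd4 is shown as that of the resident marker with the largest decrease. In RefSeq's promoter table for GRCm38.p6 the 150 bases before the start that table uses lie at chr11:46810649-46810798 on the plus strand, so their end lies inside the gene span given above, which RefSeq's gene table begins earlier.
Timd4: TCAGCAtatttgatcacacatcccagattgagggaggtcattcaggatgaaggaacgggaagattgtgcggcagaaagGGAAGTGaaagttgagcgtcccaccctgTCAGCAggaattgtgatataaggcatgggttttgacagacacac
Capitals mark the same motifs as above. Of 22 resident markers searched, 7 (31.8%) held GGAAGTG and 7 held TGCTGA in their 250 upstream bases, beside 11.6% and 12.6% of all tested genes searched.

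The largest decrease among genes with at least 16 CPM was in Cpne8, a calcium-dependent membrane-binding copine, with 1.56, 2.84 and 3.07 CPM in CAWS R3 and 30.1, 30.1 and 32.3 CPM in CAWS R2 (-3.61 ± 0.22, adjusted p = 5.49e-11). Sgce, which encodes epsilon-sarcoglycan, had 3.52, 2.84 and 4.14 CPM in CAWS R3 and 48.9, 37.9 and 34.6 CPM in CAWS R2 (-3.52 ± 0.24, adjusted p = 8.17e-10). Pla2g2d, a secreted phospholipase A2, had 15.3, 12.6 and 12.4 CPM in CAWS R3 and 181, 144 and 121 CPM in CAWS R2 (-3.47 ± 0.49, adjusted p = 0.000109). No library of one group reached the other, which the rule for the largest changes required. Lectins were among them: Siglech, a sialic acid-binding lectin known from plasmacytoid dendritic cells and microglia, had 3.28, 1.35 and 2.20 CPM in CAWS R3 and 31.2, 17.8 and 16.2 CPM in CAWS R2 (-3.25 ± 0.36, adjusted p = 5.86e-07). Colec12, a scavenger receptor with a C-type lectin domain, had 17.9, 11.5 and 15.1 CPM in CAWS R3 and 154, 113 and 116 CPM in CAWS R2 (-3.11 ± 0.36, adjusted p = 7.95e-06). So were receptors for growth signals. Bmpr1a, a receptor for bone morphogenetic proteins, had 3.12, 2.99 and 3.87 CPM in CAWS R3 and 22.3, 28.5 and 28.1 CPM in CAWS R2 (-2.97 ± 0.24, adjusted p = 5.11e-09). Epor, the erythropoietin receptor, had 6.02, 3.22 and 4.67 CPM in CAWS R3 and 39.1, 34.3 and 31.0 CPM in CAWS R2 (-2.91 ± 0.22, adjusted p = 8.48e-10). The remaining members, Ppp1r9a, Tln2, Speg and Sema6d, had log2 fold changes between -3.04 and -2.82.

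Of 21 complement genes tested, 9 were lower and 1 higher in CAWS R3, with a median of -0.46, and leaving out any library gave 7 lower. C2, a protease of the classical pathway, had 4.92, 5.69 and 7.34 CPM in CAWS R3 and 42.7, 61.7 and 44.6 CPM in CAWS R2 (-3.04 ± 0.21, adjusted p = 7.64e-10). C4b, whose product joins C2 in the classical C3 convertase, had 37.7, 45.5 and 59.5 CPM in CAWS R3 and 252, 400 and 326 CPM in CAWS R2 (-2.78 ± 0.36, adjusted p = 4.24e-05). The groups of both genes were far apart, and the rule that chose C2 as a largest change required no overlap. The increase was in Cfb, a protease of the alternative pathway, with 89.5, 170 and 174 CPM in CAWS R3 and 45.1, 70.4 and 72.0 CPM in CAWS R2 (1.21 ± 0.27, adjusted p = 0.004). C1qc, a chain of the recognition molecule C1q, had a smaller decrease (-0.63 ± 0.14, adjusted p = 0.00385). The terminal component C6 had 0.703, 0.524 and 1.13 CPM in CAWS R3 and 12.1, 10.6 and 10.8 CPM in CAWS R2 (-3.78 ± 0.45, adjusted p = 2.18e-06).

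Of 22 receptors and bridging proteins for dying cells tested, 10 were lower and 2 higher, with 9 or 10 lower when a library was left out. Gas6, a bridge from phosphatidylserine to the receptor Mertk, had 179, 168 and 169 CPM in CAWS R3 and 841, 765 and 698 CPM in CAWS R2 (-2.16 ± 0.20, adjusted p = 1.33e-07). Mertk itself had 54.5, 70.3 and 85.0 CPM in CAWS R3 and 127, 119 and 135 CPM in CAWS R2 (-0.86 ± 0.13, adjusted p = 5.01e-05). Mfge8, a bridge to integrins, changed by -1.21 ± 0.11 (adjusted p = 4.95e-08). Cd36, a scavenger receptor for oxidised lipid, had 269, 230 and 221 CPM in CAWS R3 and 935, 790 and 841 CPM in CAWS R2 (-1.83 ± 0.13, adjusted p = 8.48e-10). Stab1, a scavenger receptor, had 686, 746 and 936 CPM in CAWS R3 and 2405, 2769 and 2976 CPM in CAWS R2 (-1.78 ± 0.25, adjusted p = 4.84e-05). Scarb1, the receptor for high-density lipoprotein, went the other way, with 206, 184 and 164 CPM in CAWS R3 and 120, 105 and 97.6 CPM in CAWS R2 (0.78 ± 0.11, adjusted p = 2.84e-05). None of the 5 genes given by library overlapped between groups, which also held for 2002 of the 2027 genes past the test.

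Iron and haem genes were lower in 8 of 19 tested and higher in 0, with a median of -0.25, although 4 were lower without CAWS R2 replicate 1, 5 without any single CAWS R3 library and 5 with no filter. At an unadjusted p under 0.05 edgeR counted 0 higher, and DESeq2 and limma voom called 0 and 0 higher. Slc40a1, the iron exporter ferroportin, had 30.8, 39.5 and 40.6 CPM in CAWS R3 and 180, 215 and 194 CPM in CAWS R2 (-2.41 ± 0.32, adjusted p = 4.44e-05). Cp, which encodes ceruloplasmin and oxidises exported iron, had 24.8, 30.1 and 32.0 CPM in CAWS R3 and 200.2, 212 and 213 CPM in CAWS R2 (-2.85 ± 0.21, adjusted p = 4.89e-09). Trf, the iron carrier transferrin, changed by -1.03 ± 0.13 (adjusted p = 5.39e-06). Lysosomal genes showed many small decreases: 14 of 31 were lower and 2 higher, with a median of -0.25. That count depended on the libraries, with 5 lower without CAWS R2 replicate 2, 7 without CAWS R3 replicate 1, 9 without any of CAWS R3 replicates 2 and 3 and CAWS R2 replicate 3, and 9 with upper quartile scaling, no filter or a stricter one. Ctsf, which encodes cathepsin F, had 40, 33.5 and 40.5 CPM in CAWS R3 and 156, 152 and 159 CPM in CAWS R2 (-2.04 ± 0.11, adjusted p = 2.9e-11). Ctse, cathepsin E, had 18.7, 17.7 and 20 CPM in CAWS R3 and 9.39, 4.99 and 5.27 CPM in CAWS R2 (1.54 ± 0.24, adjusted p = 7.59e-05). The cathepsins thus differed in direction within the list.

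Chemokine ligands were lower in 8 of 24 and higher in 2, with a median of -0.72, and of the 2 higher ones, Ccl6 and Ccl9, 0 were left without CAWS R3 replicate 2 and 1 without CAWS R3 replicate 1, CAWS R2 replicate 1 or CAWS R2 replicate 3. Ccl8, a ligand of several receptors on monocytes and T cells, had 9.92, 12.2 and 10.6 CPM in CAWS R3 and 46.2, 49.5 and 43.5 CPM in CAWS R2 (-2.09 ± 0.37, adjusted p = 0.000481). Ccl24, which attracts eosinophils through Ccr3, had 20, 13.1 and 12 CPM in CAWS R3 and 74.4, 59.2 and 45.9 CPM in CAWS R2 (-2.0 ± 0.37, adjusted p = 0.00111). Ccl22, a ligand of Ccr4 on T cells, had 5.70, 5.09 and 5.27 CPM in CAWS R3 and 23.4, 19.7 and 18.2 CPM in CAWS R2 (-1.93 ± 0.20, adjusted p = 1.54e-07). Every CAWS R2 library was above every CAWS R3 library for the 3 ligands. Cxcl3, a neutrophil attractant, had 1.09, 0.823 and 0.467 CPM in CAWS R3 and 9.92, 2.17 and 3.83 CPM in CAWS R2 (-2.71 ± 0.60, adjusted p = 0.00235), with replicate 1 the highest in either group.

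Growth factors tied to repair were lower in 6 of 19 and higher in 1, and 3 were lower without CAWS R3 replicate 1, CAWS R3 replicate 2 or CAWS R2 replicate 2. Igf1, a growth factor for heart muscle and other cells, had 186, 180.3 and 192 CPM in CAWS R3 and 466, 392 and 499 CPM in CAWS R2 (-1.28 ± 0.19, adjusted p = 7.54e-05). Pdgfc, a growth factor for fibroblasts, had 9.61, 9.73 and 11.5 CPM in CAWS R3 and 50.9, 40.9 and 35.7 CPM in CAWS R2 (-2.04 ± 0.24, adjusted p = 1.68e-06). Their groups did not overlap. Matrix proteases and their inhibitors were split, with 4 higher and 4 lower of 26, or 7 lower with the pool as a block. Each 4 was 15.4% of the list, beside 5.51% higher and 9.76% lower over all genes tested. Mmp13, a collagenase, had 84.2, 76.0 and 81.3 CPM in CAWS R3 and 261, 251 and 307 CPM in CAWS R2 (-1.76 ± 0.12, adjusted p = 5.63e-10), whereas the sheddase Adam8 had 81.4, 57.2 and 60.3 CPM in CAWS R3 and 35.1, 41.9 and 32.8 CPM in CAWS R2 (0.85 ± 0.18, adjusted p = 0.00173).

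Calcium-binding S100 proteins and annexins, with 6 higher and 0 lower of 17 tested, kept 6 higher members when any library was left out. edgeR counted 0 lower also at an unadjusted p under 0.05, DESeq2 called 6 higher and 0 lower, and limma voom 7 and 0. S100a4 had 322, 320 and 244 CPM in CAWS R3 and 83.9, 98.4 and 68.4 CPM in CAWS R2 (1.82 ± 0.34, adjusted p = 0.00116). S100a6 had 311, 272 and 221 CPM in CAWS R3 and 72.3, 76.6 and 58.6 CPM in CAWS R2 (1.95 ± 0.24, adjusted p = 7.38e-06). These groups were well separated. S100a10, S100a11, Anxa1 and Anxa2 had log2 fold changes of 0.65 to 0.97. The alternative activation list, named for genes induced by interleukin-4, was split into 3 higher and 7 lower of 20. Retnla, a secreted resistin-like protein, had 472, 314 and 212 CPM in CAWS R3 and 104, 84.7 and 57.6 CPM in CAWS R2 (2.02 ± 0.35, adjusted p = 0.000548), and Chil3 was also higher, while Mrc1, Cd163, Ccl17, Ccl22, Ccl24, Stab1 and Il1rn were lower. The call of Il1rn, the interleukin-1 receptor antagonist, was lost without CAWS R3 replicate 1 or 2 or CAWS R2 replicate 2 or 3, with adjusted p values of 0.0868 to 0.231. Arg1, which encodes arginase 1, had 0.859, 2.92 and 17.3 CPM in CAWS R3 and 0.595, 0.434 and 0.599 CPM in CAWS R2 (3.75 ± 0.85, adjusted p = 0.00395). That value rested on CAWS R3 replicate 3, without which it was 1.81 (adjusted p = 0.0811).

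Genes linked to lipid-laden and repair macrophages were split evenly, with 8 higher and 8 lower of 29. Spp1, the secreted protein osteopontin, had 97.0, 136 and 108 CPM in CAWS R3 and 47.0, 42.1 and 44.0 CPM in CAWS R2 (1.35 ± 0.28, adjusted p = 0.00189). Lgals3, which encodes galectin 3, had 692, 685 and 583 CPM in CAWS R3 and 348, 358 and 367 CPM in CAWS R2 (0.87 ± 0.14, adjusted p = 0.000129). Pparg, a nuclear receptor for lipids, had 53.6, 49.3 and 42.4 CPM in CAWS R3 and 26.5, 22.2 and 23.2 CPM in CAWS R2 (1.02 ± 0.19, adjusted p = 0.000643). None of these overlapped between groups. Of 37 transcription factors tested, 3 were higher and 9 lower, with 5 lower without CAWS R2 replicate 2. Bhlhe41, a repressor of the basic helix-loop-helix family, changed by -2.31 ± 0.28 (adjusted p = 1.86e-06), Tal1 by -1.83 ± 0.33 (adjusted p = 0.00039) and Spic, a factor of red pulp and other iron-handling macrophages, by -1.14 ± 0.24 (adjusted p = 0.002).

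Of 23 genes for recognising fungi, 6 were lower (26.1%) and 1 was higher (4.35%), beside 9.76% and 5.51% of all genes tested. Higher members numbered 3 without CAWS R2 replicate 2 and 5 with limma voom. Clec4d and Clec4n, which encode the C-type lectins dectin-3 and dectin-2 that bind fungal mannan, changed by -1.21 ± 0.30 (adjusted p = 0.00761) and -0.66 (adjusted p = 0.00279). Toll-like receptors and adaptors had 5 lower (21.7%) and 2 higher (8.7%) of 23, the second near the 5.51% of all genes tested. They had 3 lower without CAWS R3 replicate 1, CAWS R2 replicate 2 or CAWS R2 replicate 3. In the inflammasome and interleukin-1 list of 20, 4 were higher, namely Mefv, Il18rap, Gsdmd and Pycard, and 3 were lower, or 1 without CAWS R3 replicate 1. Pycard, the adaptor ASC, had 108, 117 and 97.8 CPM in CAWS R3 and 66.7, 72.4 and 57.7 CPM in CAWS R2 (0.71 ± 0.16, adjusted p = 0.00271). Nlrp3, a sensor that signals through it, had 45.5, 48.6 and 50.3 CPM in CAWS R3 and 56.4, 53.5 and 56.6 CPM in CAWS R2 and did not pass (-0.20 ± 0.19, adjusted p = 0.547). Of 25 genes induced by type I interferon, edgeR called 2 higher (8.0%, near the 5.51% of all genes tested) and 0 lower. Lower members were also 0 at an unadjusted p under 0.05 and by DESeq2, and 1 by limma voom. When any library but CAWS R3 replicate 1 was left out 1 was higher, while the fit with the pool as a block gave 8 higher. Of 29 cell cycle genes edgeR called 0 in either direction, with 1 higher and 0 lower at an unadjusted p under 0.05 and 0 by DESeq2 and limma voom. Of 18 costimulation and checkpoint genes edgeR called 1 lower (5.56%, under the 9.76% of all genes tested) and 0 higher. Higher members numbered 2 at an unadjusted p under 0.05, 0 by DESeq2 and 1 by limma voom. The lower gene was Cd86, the ligand of the T cell receptor CD28, with 149, 147 and 138 CPM in CAWS R3 and 360, 312 and 318 CPM in CAWS R2 (-1.19 ± 0.11, adjusted p = 9.15e-08).

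Of 27 glycolysis and hypoxia genes, 7 were higher and 2 lower, with 3 higher without CAWS R2 replicate 1 and 4 without CAWS R3 replicate 1, CAWS R3 replicate 2 or CAWS R2 replicate 3. Ldha, which makes lactate, changed by 0.52 ± 0.12 (adjusted p = 0.0054). Of 22 genes of the NADPH oxidase and of oxidant defence, 6 were higher and 8 lower, with 2 higher without CAWS R3 replicate 2 or CAWS R2 replicate 3, 3 higher without CAWS R2 replicate 1, and 3 to 5 lower when any 1 of the CAWS libraries was left out. Ncf4, a regulatory subunit of the oxidase, changed by 0.47 (adjusted p = 0.0015), and Sod1, a superoxide dismutase, by 0.67 (adjusted p = 0.00396). Of 25 respiratory chain subunits edgeR called 3 higher and 0 lower (0 lower also at an unadjusted p under 0.05 and by DESeq2 and limma voom), with 0 higher without CAWS R3 replicate 2, CAWS R2 replicate 1 or CAWS R2 replicate 3, but 10 in the fit of the 6 libraries alone and 13 with limma voom.

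**Figure D3:**
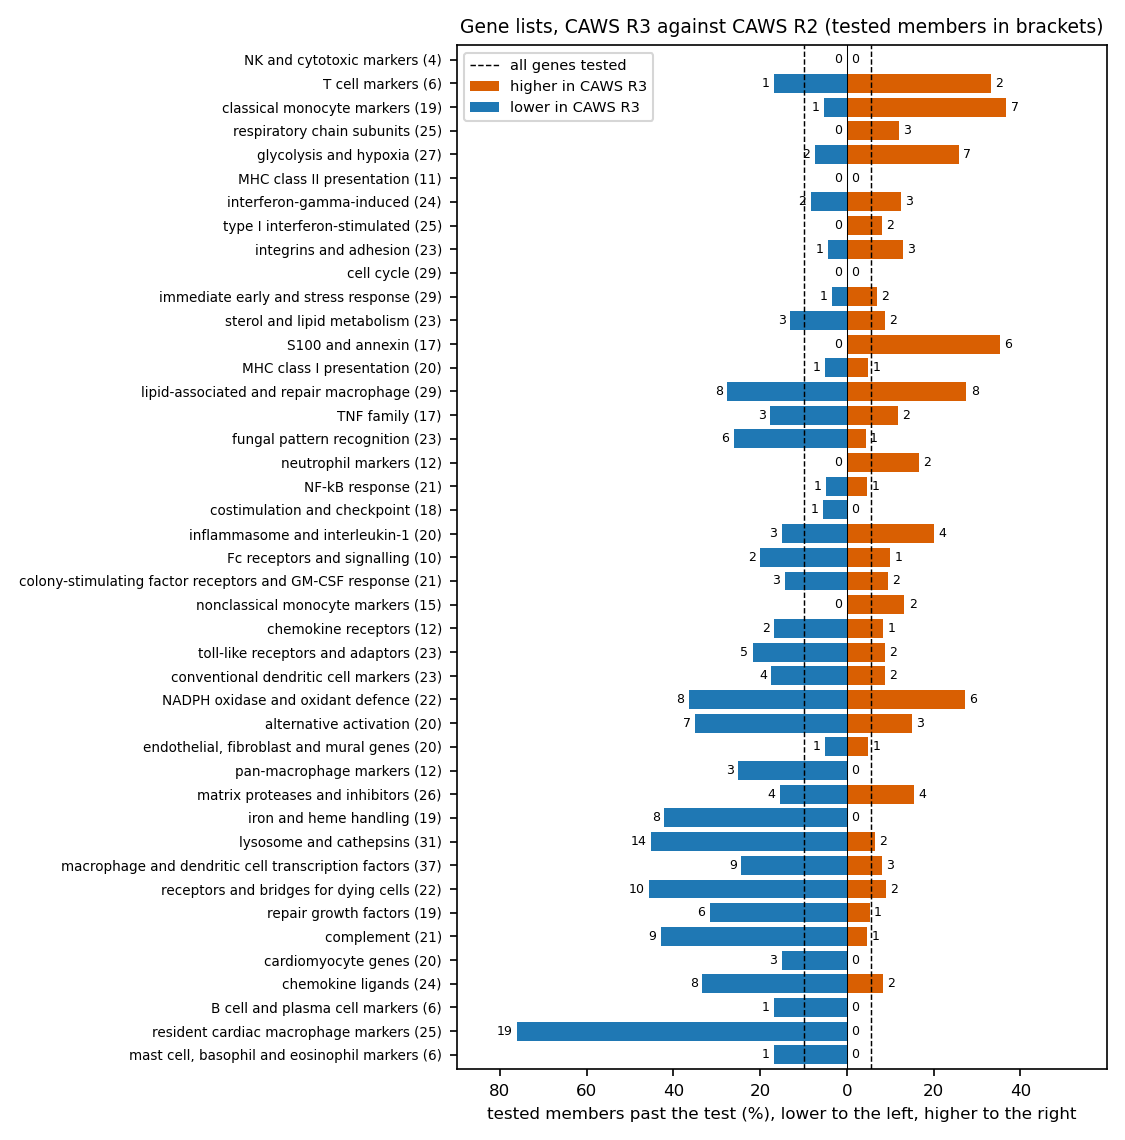
Percentage of tested members of each gene list that were higher (orange, to the right) or lower (blue, to the left) in CAWS R3 than in CAWS R2, with the number of members at each bar, and dashed lines at 5.51% and 9.76%, the shares of all genes tested. The resident macrophage list, with 19 of 25 lower, reaches farthest left, and the classical monocyte list, with 7 of 19 higher, farthest right.

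Markers of other cells were checked beside these counts. Cardiomyocyte genes summed to 91.9 to 141 CPM in CAWS R3 and 152 to 225 CPM in CAWS R2, with 3 of 20 lower (Nppa, Myh6 and Mb) and 0 without CAWS R3 replicate 1 or CAWS R2 replicate 1. Endothelial, fibroblast and mural genes summed to 766 to 857 CPM in CAWS R3 and 611 to 677 CPM in CAWS R2. Of 20, 1 was higher and 1 lower (5.0% each), under the 5.51% and 9.76% of all genes tested. The higher gene, Gsn, lost the call without CAWS R3 replicate 1 or 2 or CAWS R2 replicate 1 or 3 (adjusted p 0.0807 to 0.133), and the lower one, Postn, when any library but CAWS R2 replicate 2 was left out (adjusted p 0.0518 to 0.112). Neutrophil markers summed to 142 to 171 CPM in CAWS R3 and 184 to 270.2 CPM in CAWS R2, with 6 and 5 of the 16 markers at 0 in all libraries of the group. Of the 12 tested, edgeR nevertheless called 2 higher in CAWS R3, Csf3r (0.47, adjusted p = 0.00708) and Cd177, the second of which was lost without CAWS R3 replicate 1 (adjusted p = 0.0959). It called 0 lower, against 1 at an unadjusted p under 0.05 and 1 by each of DESeq2 and limma voom. T cell markers summed to 38.4 to 42.8 CPM in CAWS R3 and 63.9 to 66.8 CPM in CAWS R2, with 3 and 2 of 12 at 0. The lower sum came with Cd4, which mouse macrophages can also express, with 11.8, 12 and 15.8 CPM in CAWS R3 and 47.3, 49.6 and 55.0 CPM in CAWS R2 (-1.94 ± 0.21, adjusted p = 5.4e-07). Without Cd4 the sum was higher in CAWS R3, with 27.3, 30.8 and 22.7 CPM in CAWS R3 and 17.5, 14.3 and 11.9 CPM in CAWS R2, and the groups did not overlap. Of 6 T cell markers tested, 2 were higher, Cd2 (1.61, adjusted p = 0.00667) and Il7r (0.73, adjusted p = 0.0336); Il7r lost the call when any 1 of the 6 libraries was left out (adjusted p 0.0544 to 0.0995). Mast cell, basophil and eosinophil markers summed to 6.74 to 7.71 CPM in CAWS R3 and 12.6 to 19.4 CPM in CAWS R2, with 7 and 3 of 11 at 0. Sums of B cell markers (39.8 to 44.8 CPM in CAWS R3, 34.4 to 58.5 CPM in CAWS R2) and of NK cell markers (3.36 to 4.19 CPM in CAWS R3, 3.41 to 5.80 CPM in CAWS R2) overlapped. The part of these cells in the gene differences was not tested.

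The R3 and R2 populations of naive mice gave the same comparison in 6 other libraries, which entered the fit above only through the shared scaling, filter and estimate of spread. There, 880 genes were higher in naive R3 (6.63%) and 766 lower (5.77%) than in naive R2. Without naive R2 replicate 3 there were 579 higher and 481 lower, and the lower genes numbered 416 without naive R3 replicate 1, 485 without naive R3 replicate 2 and 493 without naive R2 replicate 1. Genes higher in both comparisons numbered 339, which is 46.3% of the 732 in CAWS and 38.5% of the 880 in naive mice. Genes lower in both numbered 537, which is 41.5% of the 1295 in CAWS and 70.1% of the 766 in naive mice. No gene was higher in CAWS R3 and lower in naive R3, and 8 were lower in CAWS R3 and higher in naive R3, among them Ccl22. Of the resident markers, 8 of 25 were lower in naive R3 than in naive R2, with a median log2 fold change of -0.58, beside 19 and -1.50 in CAWS. That naive count rested on single libraries: 17 were lower without naive R3 replicate 3, with a median of -0.83, 3 without naive R3 replicate 1 and 4 without naive R3 replicate 2. With the pool as a block 12 were lower, and with limma voom 15. With the pool as a block the naive comparison gave 958 higher and 855 lower genes.

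Whether the difference between R3 and R2 itself differed between CAWS and naive mice was tested with the interaction of both. It passed in 309 genes (2.33%), of which the log2 difference was more positive in CAWS for 13 (0.0979%) and more negative for 296 (2.23%). The count was 188 without CAWS R3 replicate 2 and 199 without CAWS R2 replicate 2, and 295 without naive R3 replicate 3. The more negative ones numbered 185 and 189 without the first and the second of these, and 197 without naive R2 replicate 2. The more positive ones numbered 3 without CAWS R3 replicate 2, 7 without CAWS R2 replicate 1 and 5 without naive R2 replicate 1.

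**Figure D4:**
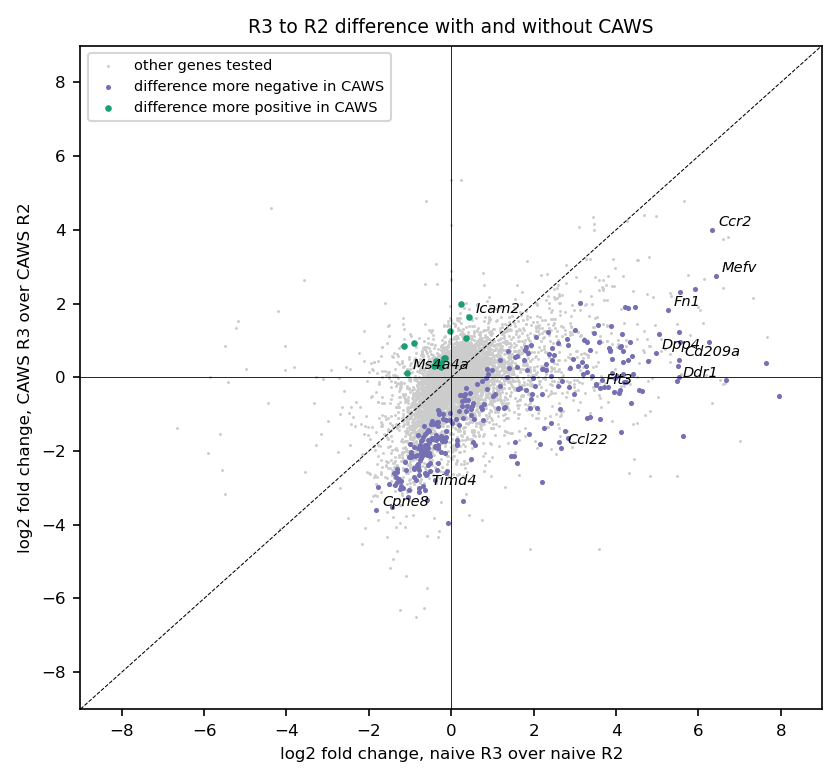
Log2 fold change of CAWS R3 over CAWS R2 (y axis) against that of naive R3 over naive R2 (x axis) for the 13275 genes tested, with the 296 genes whose difference was more negative in CAWS in purple, the 13 more positive in green and a dashed line of equal change. Purple points lie below the line at the lower left (Timd4, Cpne8) and along the zero line at the right (Ddr1, Cd209a, Flt3).

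Resident macrophage receptors were among the genes with a more negative difference in CAWS. Timd4 had 10.3, 7.18 and 7.41 CPM in CAWS R3 and 68.1, 78.9 and 57.9 CPM in CAWS R2, beside 40.9, 49.4 and 102 CPM in naive R3 and 92.7, 89.2 and 117 CPM in naive R2, an interaction of -2.40 ± 0.41 (adjusted p = 0.00205). Lyve1 had 140, 161 and 406 CPM in naive R3 and 345, 314 and 481 CPM in naive R2, with an interaction of -2.25 ± 0.45 (adjusted p = 0.0102). In naive mice the R3 and R2 libraries of each gene overlapped, with naive R3 replicate 3 the highest of its group, and without the pairing the difference did not pass (-0.65, adjusted p = 0.116 for Timd4 and -0.69, adjusted p = 0.162 for Lyve1). Within libraries of the same number R3 was below R2 in 3 of 3 pairs for each gene, and with the pool as a block both passed (-0.71, adjusted p = 0.032 for Timd4 and -0.80, adjusted p = 0.0375 for Lyve1). Both also passed without naive R3 replicate 3, at -1.15 (adjusted p = 0.000572) for Timd4 and -1.34 (adjusted p = 0.000196) for Lyve1. Without that library the interactions were -1.90 (adjusted p = 0.000764) for Timd4 and -1.60 (adjusted p = 0.00256) for Lyve1, and in a fit of the 4 groups alone that of Lyve1 was lost (adjusted p = 0.101). Of the 25 resident markers, edgeR called 7 (28%) with a more negative and 0 with a more positive difference in CAWS. Over all genes tested these shares were 2.23% and 0.0979%. With 1 library left out, 5 to 10 of the markers were more negative. More positive members were also 0 at an unadjusted p under 0.05 and by DESeq2 and limma voom. The median interaction of the list was -1.19, and -0.56 without naive R3 replicate 3. Cd163 (-1.87, adjusted p = 0.00031) and C2 (-2.02, adjusted p = 0.000164) also passed.

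Ddr1, and Cd209a and Flt3, which are known from dendritic cells, behaved differently. Ddr1, a collagen receptor, had 32.0, 20 and 15 CPM in CAWS R3 and 23.8, 36.3 and 11.4 CPM in CAWS R2, beside 36.1, 17.9 and 15 CPM in naive R3 and 0.994, 0.455 and 0.0881 CPM in naive R2 (interaction -5.58 ± 0.79, adjusted p = 0.00032). Cd209a, a C-type lectin of dendritic cells derived from monocytes, had 279, 164 and 139.6 CPM in CAWS R3 and 145, 206 and 69.9 CPM in CAWS R2, beside 413, 278 and 205 CPM in naive R3 and 5.78, 5.97 and 7.71 CPM in naive R2 (interaction -5.05 ± 0.84, adjusted p = 0.00288). Flt3, the growth factor receptor of dendritic cells, had 43.4, 22.3 and 21.8 CPM in CAWS R3 and 39.6, 49.7 and 17.4 CPM in CAWS R2, beside 46.2, 36.3 and 23.8 CPM in naive R3 and 3.57, 2.50 and 2.64 CPM in naive R2 (interaction -3.90 ± 0.60, adjusted p = 0.000989). For all 3 genes naive R2 was the lowest group, without overlap, while CAWS R3 and CAWS R2 overlapped.

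Of 23 conventional dendritic cell markers, 10 (43.5%) had a more negative difference in CAWS and 0 a more positive one by edgeR. Over all genes tested these shares were 2.23% and 0.0979%. The 10 fell to 7 without CAWS R3 replicate 2 or 3, CAWS R2 replicate 2, or naive R2 replicate 2 or 3. More positive members were also 0 at an unadjusted p under 0.05 and by DESeq2 and limma voom. Against CAWS R2, 2 were higher and 4 lower in CAWS R3 (8.7% and 17.4%, beside 5.51% and 9.76% of all genes tested). Against naive R2, 11 were higher (47.8%) and 0 lower in naive R3, beside 6.63% and 5.77% of all genes tested. Lower members in naive R3 numbered 3 at an unadjusted p under 0.05, 1 by DESeq2 and 3 by limma voom. Without CAWS R3 replicate 2 or CAWS R2 replicate 2, 2 were lower in CAWS R3, and without CAWS R3 replicate 1 or CAWS R2 replicate 3, 1 was higher. The list summed to 1926, 1701 and 1667 CPM in CAWS R3 and 1625, 1919 and 1410.3 CPM in CAWS R2, and to 2367, 2074 and 1783 CPM in naive R3 and 1314, 1387 and 1325 CPM in naive R2. In CAWS R2 the list was highest in replicate 2 and lowest in replicate 3. The naive groups did not overlap and the CAWS groups did. The part of dendritic cells within the gates was not tested.

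Further genes followed that pattern. Dpp4, a surface peptidase, had 61.3, 51.1 and 49.4 CPM in CAWS R3 and 33.2, 50.6 and 19 CPM in CAWS R2, beside 61.0, 38.4 and 28.8 CPM in naive R3 and 1.90, 1.71 and 0.573 CPM in naive R2 (interaction -4.32 ± 0.74, adjusted p = 0.00282). Jaml (-4.36 ± 0.66), an adhesion molecule of leukocytes, and the transcription factor Bhlhe40 (-3.73 ± 0.64) also passed, with log2 fold changes in CAWS of -0.12 (adjusted p = 0.865) and -0.21 (adjusted p = 0.766). Klrd1, which encodes the lectin-like receptor CD94, had an interaction of -3.72 ± 0.72 (adjusted p = 0.00363), lost in a fit of the 4 groups alone (adjusted p = 0.0627). Ccl22 reversed its direction, with 5.62, 7.78 and 6.88 CPM in naive R3 and 1.26, 1.08 and 0.837 CPM in naive R2 (2.67 ± 0.29, adjusted p = 4.35e-07), opposite to the decrease in CAWS, and its interaction was -4.60 ± 0.35 (adjusted p = 1.22e-08). Ccl17, the other ligand of Ccr4, changed by -1.64 ± 0.40 in CAWS (adjusted p = 0.00503, and 0.0651 with the older edgeR fit) and by 2.83 ± 0.38 in naive mice (adjusted p = 7.71e-06), with an interaction of -4.47 ± 0.56 (adjusted p = 2.61e-05).

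Some genes were higher in R3 of either kind of mouse but by less in CAWS. Ccr2 had 2599, 2529.7 and 2041 CPM in naive R3 and 29.0, 20.2 and 38.7 CPM in naive R2, a log2 fold change of 6.34 ± 0.34 beside 3.99 ± 0.30 in CAWS (interaction -2.35 ± 0.39, adjusted p = 0.00215). CAWS R2 libraries thus all lay above the naive R2 libraries for the gene that defined the gate. Fn1 had 910.4, 392 and 873 CPM in naive R3 and 25.8, 11.2 and 19.3 CPM in naive R2 (interaction -3.44 ± 0.54, adjusted p = 0.00178). Hr, a nuclear corepressor, had 30.1, 13.2 and 20.5 CPM in CAWS R3 and 9.46, 9.92 and 7.78 CPM in CAWS R2, beside 43.5, 18.1 and 25.9 CPM in naive R3 and 0.316, 0.284 and 1.19 CPM in naive R2 (interaction -4.31 ± 0.62, adjusted p = 0.000192). Its increase in CAWS alone, 1.23 ± 0.33 (adjusted p = 0.0113), was lost without CAWS R3 replicate 1 (0.0844), without CAWS R2 replicate 3 (0.0595) and by DESeq2 (0.167). Mefv was close to its limit of detection in naive R2, at 0.0904, 0.0569 and 0.132 CPM, against 9.26, 11.7 and 5.29 CPM in naive R3. Its interaction of -3.67 ± 0.85 (adjusted p = 0.0147) was lost without naive R2 replicate 1, 2 or 3, with adjusted p values of 0.0963, 0.0888 and 0.0733.

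The 9 named genes with a more positive difference in CAWS had interactions of 0.54 to 1.27. Ms4a4a, a membrane protein of the MS4A family, had 106, 106 and 123 CPM in CAWS R3 and 123, 75.0 and 114 CPM in CAWS R2, beside 40.1, 38.5 and 52.2 CPM in naive R3 and 96.7, 91.3 and 88.8 CPM in naive R2 (interaction 1.19 ± 0.21, adjusted p = 0.00143). Tpd52, a protein of vesicle traffic, had 620, 641 and 557 CPM in CAWS R3 and 452, 386 and 425 CPM in CAWS R2, beside 382, 407 and 387 CPM in naive R3 and 456, 428 and 453 CPM in naive R2 (interaction 0.71 ± 0.13, adjusted p = 0.00249). Ms4a4a overlapped between the CAWS groups and was lower in every naive R3 library than in every naive R2 library, whereas Tpd52 was higher in every CAWS R3 library than in every CAWS R2 library. The other 7 named genes lost the call when some library was left out, with adjusted p values of 0.0509 to 0.156.

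**Figure D5:**
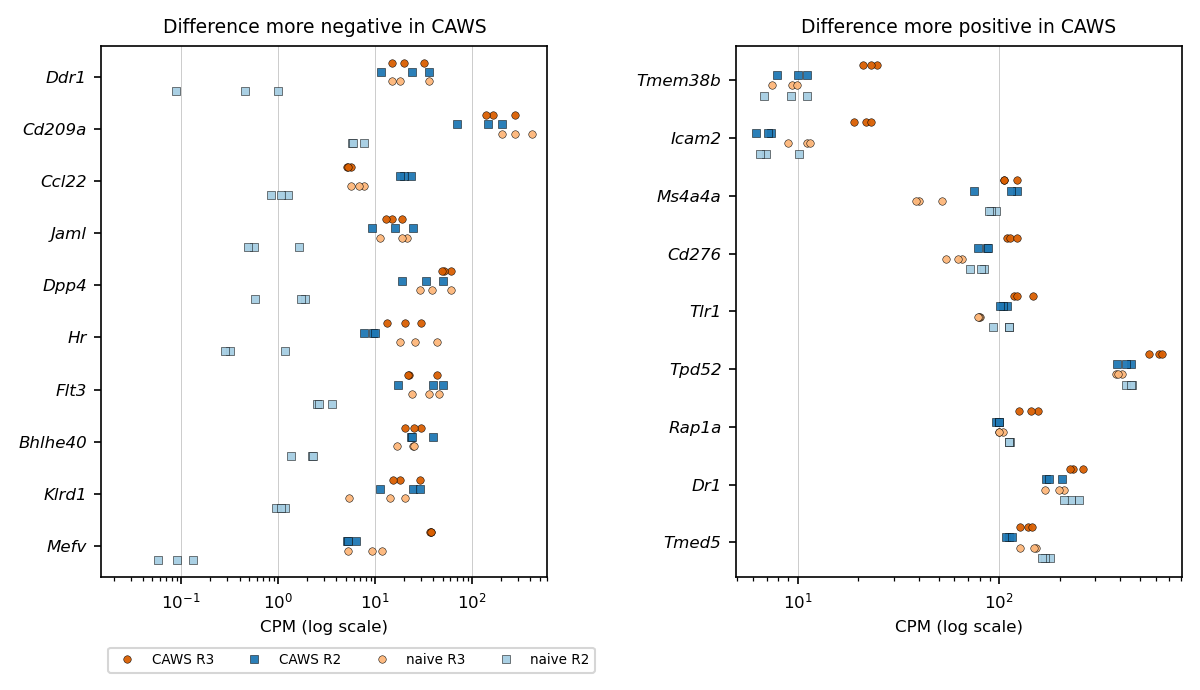
CPM on a log scale (x axis) in each library of CAWS R3, CAWS R2, naive R3 and naive R2 for the 10 genes whose difference between R3 and R2 was most negative in CAWS relative to naive mice (left) and the 9 most positive (right). On the left the naive R2 libraries stand alone at low values, such as 5.78 to 7.71 CPM for Cd209a, while on the right Tmem38b and Icam2 are highest in CAWS R3 and Ms4a4a is lowest in naive R3.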

How the data were processed

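RNA from sorted cells was sequenced in 21 libraries of 7 groups, and 12 libraries (CAWS and naive, R3 and R2) entered the comparisons reported. Group means of CAWS R1 and of splenic monocytes were read beside them. The deposited values are raw read counts for each gene from featureCounts and build mm10, per the submitters' processing notes. Which aligner, annotation release and strand setting were used is not given in the sources used here, so reads of overlapping genes cannot be told apart; among genes named here this touches Ttc39c, Ppp1r9a, Tln2, Cp, Sema6d, Gas6, Stab1, Mrc1, Anxa2, Jaml, Bhlhe40, Ms4a6c, Vcan, Mb, Myh6, Ccl6 and Hspe1. The separate files held the same counts as the combined table for 21 of 21 libraries. RefSeq's GRCm38.p6 table gave symbols for 25275 of 27179 gene IDs. Genes were kept by edgeR's filterByExpr (minimum count 10, minimum total 15), which left 13275, 278 of them without a symbol.

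Tests were edgeR 4.0.16 quasi-likelihood tests in R 4.3.3 (robust, newer dispersion method, TMM), two-sided, with 1 mean per group, the spread estimated from 21 libraries with 14 residual degrees of freedom, and p-values adjusted over all genes by Benjamini and Hochberg; an adjusted p under 0.05 passed. The procedure was tested on simulated data. Alternatives used DESeq2 1.42.0, limma 3.58.1, other scalings and filters, fewer groups, and libraries left out in turn; 2 of them, leaving out 1 gene ID and joining the pool block to the fit of the compared groups, were chosen after the data were seen. Replicate counts differed by far more than counting error (chi-square per degree of freedom 11.3 to 24.7 in CAWS R3 and 18.1 to 48.6 in CAWS R2). In the splenic monocytes, which share the estimate of spread, it was 32.7 to 131. With only the compared groups in the fit, 2882 genes passed in CAWS R3 against CAWS R2.

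The series design says that each pool was divided into populations, so libraries with the same number were taken as 1 pool. Deviations from the group means correlated at 0.201, 0.027 and 0.253 for same-numbered CAWS R3 and R2 libraries, and at 0.079, 0.085 and 0.133 for naive ones. Libraries of different numbers correlated at -0.242 to 0.035 in CAWS and at -0.077 to -0.012 in naive mice. Deviations cancel within a group, so these values are not independent of the former. The labels state no test, so the pool block was an alternative.

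Genes named are the 15 largest changes in each direction among those past the test, with at least 16 CPM on average in the higher group and no overlap between libraries; the 10 largest interactions in each direction (9 qualified as more positive); from every list the 8 or fewer passing members of smallest p; and Ccr2, MHC class II genes, Adgre1 and Csf1r. Plac8, Siglec1, Mgl2, Cd5l, Nlrp3, Lyz2, the interactions and naive values of Timd4, Lyve1, Cd163, C2, Ccl17 and Fn1, and the T cell sum without Cd4 were added after their values were seen. Folr2, Ccl9 and the interaction and naive values of Ccr2 also fall outside the rule. Some genes that the rule names are not reported here. The 43 gene lists hold 799 genes, 742 of them tested, and members and lists were chosen with earlier results of these data known.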

Additional observations from a re-analysis of the deposited data

Results flagged for a closer look

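The difference between R3 and R2 itself differed between CAWS and naive mice in 309 genes by the interaction test. Among those named, the log2 difference was more negative in CAWS for Ddr1 (-5.58), Cd209a (-5.05), Ccl22 (-4.60), Jaml (-4.36), Dpp4 (-4.32), Hr (-4.31), Flt3 (-3.90), Bhlhe40 (-3.73), Klrd1 (-3.72) and Mefv (-3.67). It was more positive in CAWS for Tmem38b (1.27), Icam2 (1.19), Ms4a4a (1.19), Cd276 (0.82), Tlr1 (0.72), Tpd52 (0.71), Rap1a (0.67), Dr1 (0.64) and Tmed5 (0.54). With groups of 3 libraries no single library was tested as standing apart.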

How the results depend on the processing

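No named gene past the test changed direction under any alternative run. Of 203 named genes that passed in CAWS R3 against CAWS R2, 136 passed under every alternative and 67 lost the call under at least 1; of 19 named interactions 10 passed throughout. With limma voom the comparison gave 3939 genes (1691 higher, 2248 lower), and the interaction 623 (105 more positive, 518 more negative). With the 6 libraries alone 1402 were higher and 1480 lower, and with the pool block added to that fit 4640 passed (2304 higher, 2336 lower). The interactions more positive in CAWS were 33 with DESeq2 and 81 with the groups compared alone. The causes were not tested.

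Pairing libraries of the same number as a replicate block gave 2075 genes in CAWS R3 against CAWS R2 (730 higher, 1345 lower), 1813 in naive R3 against naive R2 and 394 interactions (19 more positive, 375 more negative). The block lost the calls of Tmed5 (adjusted p = 0.074), Tlr2 (0.0646), Cox4i1 (0.075) and Hspe1 (0.0793) and the interactions of Rap1a (0.0511) and Tmed5 (0.0602), and no other named call.

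With 1 library left out, CAWS R3 against CAWS R2 gave 1236 to 1912 genes (391 to 701 higher, 766 to 1211 lower), naive R3 against naive R2 gave 1060 to 1620 (579 to 878 higher, 416 to 742 lower) and the interaction 188 to 314 (3 to 16 more positive, 185 to 305 more negative). These fits hold fewer samples. Leaving out the gene ID that took most counts of CAWS R2 replicate 2 gave 732 higher and 1294 lower.

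Each group had 3 pools, which limits precision. A group total of 3 counts corresponds to 0.0729 CPM in CAWS R3 and 0.0597 CPM in CAWS R2, counting error only, so values near it cannot be ranked.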

Other observations

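Splenic monocytes of naive mice and CAWS R1 cells, which were negative for Ccr2 and low for MHC-II, were read beside the genes that differed between CAWS R3 and CAWS R2. Of the 15 largest increases in CAWS R3, the mean of the monocytes was above that of CAWS R3 in 13 and the mean of CAWS R1 was below CAWS R3 in 15. Over the 209 genes at least 2-fold higher in CAWS R3, the monocyte mean was above CAWS R3 in 124 and below it in 85, and the CAWS R1 mean was below CAWS R3 in 208; over all 13275 genes tested the monocyte mean was above CAWS R3 in 6523 and the CAWS R1 mean below it in 6269. Chil3 had 1270 CPM on average in the monocytes, where Ccr2 had 3262 CPM. Of the 15 largest decreases, the monocyte mean was below both CAWS R3 and CAWS R2 in 15, and the CAWS R1 mean was above CAWS R3 in 15. Over the 601 genes at least 2-fold lower in CAWS R3, the monocyte mean was below CAWS R3 in 559 and the CAWS R1 mean was above CAWS R3 in 585. Over all genes tested these counts were 6743 and 7000. The genes were chosen by CAWS R3 and CAWS R2 values, so these counts are a description and were not tested.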
